A study of Mus musculus with 12 samples.

Results

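T cells carry a small set of surface proteins that set how strongly they answer through the T cell receptor, and the chromatin around 10 genes of this kind was followed from marrow progenitors to early T-lineage cells. CD4 and the CD8 chains (Cd8a, Cd8b1) are the coreceptors that bind MHC molecules, CD28 and ICOS are costimulatory receptors, and CTLA4 is the inhibitory receptor that competes with CD28 for the same ligands. CD2 is an adhesion receptor that lowers the threshold of activation, CD5 and CD6 are related scavenger-receptor proteins that tune T cell receptor signals, and THY1 is the GPI-anchored protein that marks T cells in mice. In thymocyte development THY1, CD2 and CD5 appear early, whereas CD4 and CD8 appear only after the double-negative (DN) stages, where their enhancers and the Cd4 silencer are much studied. The open chromatin around a gene is not a measure of its expression, and no expression was examined here.

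Open chromatin was measured by DNase-seq, in which DNase I cuts accessible DNA and clusters of cuts are called as DNase I hypersensitive sites (DHSs). Of 12 mouse libraries (C57BL/6J), 3 came from freshly isolated marrow LSK cells (Lin- SCA1+ KIT+ progenitors), and the other groups were grown from LSK cells with SCF, FLT-3 ligand, IL-6 and IL-11. Cultures on the immobilized Notch ligand Delta1 gave DN1 (KIT++ CD44+ CD25-, 2 libraries), DN2a (KIT++ CD44+ CD25+, 2 libraries) and DN2b (KIT+ CD44lo CD25+, 2 libraries), and culture on IgG without a Notch ligand gave 3 libraries. DN2a and DN2b cells came from cultures that also received IL-7 and DN1 cells from cultures that did not, so stage and IL-7 cannot be told apart between them. These are cultured cells sorted for surface markers. The 4 DN2 libraries, all with IL-7, are also 4 of the 6 Delta1 libraries, and the LSK cells were not cultured. In the comparisons below, Delta1 therefore cannot be told apart from IL-7, culture or the sort by stage. By the study's methods the replicates of a group go back to separate LSK isolates, and which libraries of different groups share an isolate is not given in the sources used here. Replicate numbers were assigned here in record order, only to name the libraries.

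The members were found by position. Peaks of the 12 lists were merged into 170207 consensus DHSs on the autosomes and X, and 199 of them had their midpoint within 50 kb of a gene body of the 10 genes (GRCm38/mm10, GENCODE M21). The 199 DHSs lay in 6 loci, because the windows of neighbouring genes overlap: 69 around Cd28, Ctla4 and Icos on chromosome 1, 40 around Cd5 and Cd6 on chromosome 19, 35 around Cd4 on chromosome 6, 24 around Thy1 on chromosome 9, 19 around Cd2 on chromosome 3 and 12 around Cd8a and Cd8b1 on chromosome 6. Only 6 of the 199 DHSs lay within 1 kb of the start of a gene record of the 10, 22 lay at the promoter of another protein-coding gene and 171 lay elsewhere, including 4 within 1 kb of another coding start of Cd28, Ctla4 or Cd5. A DHS is named here by gene and by the distance of its midpoint from that gene's start, plus meaning downstream. Each value is a within-library percentile: the rank of the peak's deposited score among all peaks of its library, where 100 is the highest and 0 stands for no peak. A 0 means that no peak was called, not that the chromatin was shown to be closed. The lists ranged from 32952 peaks (IgG replicate 2) to 111582 (DN2b replicate 2), and they hold no read totals, so the depth behind each value is unknown. Promoters of 10 T lineage markers followed the labels: 8 to 10 had a peak in the DN2 libraries, 5 in each DN1 library, 1 to 3 in LSK and 0 in IgG. Among them, Il2ra, Cd3e, Rag1 and Bcl11b were classed by the study, from the same experiment, as promoters that become accessible in DN2b cells. These markers are therefore not an independent check of the labels. Promoters of 10 myeloid markers were open in 4 to 6 cases in the IgG libraries and in 2 to 5 in the others, and those of 10 NK and ILC markers in 0 cases in IgG, 2 to 4 in LSK and 4 to 7 in the Delta1 libraries. Of 10 dendritic cell and macrophage markers 5 or 6 were open in the Delta1 libraries, 4 in LSK and 3 or 4 in IgG, of 10 mast cell and basophil markers 2 to 4, 1 and 0 to 2, of 10 progenitor markers 4 to 6, 5 or 6 and 2 to 4, and of 10 B lineage markers 2 to 4, 3 and 1 to 3. Called higher with Delta1, by the test described below, were 5 of 9 tested T lineage, 3 of 7 NK and ILC, 2 of 7 dendritic and macrophage (Siglech and Batf3) and 2 of 4 mast and basophil promoters (Cpa3 and Mcpt8), and 0 of 6 progenitor, 0 of 6 myeloid (1 was lower) and 0 of 4 B lineage promoters, beside 13.7% of all tested promoters. Among these calls, Rag1, Tcf7, Siglech and Batf3 had a peak in the 6 Delta1 libraries and no other. That pattern fixes the p of the test, which adds nothing for these 4 promoters. Whether other cell types add to the DHSs below was not tested.

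Promoter accessibility differed widely among the 10 genes. Cd4, Cd8a, Cd8b1 and Ctla4 had no peak within 1 kb of the start of their gene record in any of the 12 libraries (4 of 10 genes, beside 37.5% of all 21755 protein-coding promoters), and only Cd5 was open in all 12 (1 of 10, beside 36.2%). All 10 promoters had a CpG ratio (observed over expected, 2 kb around the start of the gene record) below the genome-wide median. It ran from 0.188 in Cd28 to 0.385 in Thy1 with a median of 0.224. The median over all protein-coding promoters was 0.478 (lower and upper quartiles 0.211 and 0.661). Among these promoters the 10 lay at percentiles 21.5 (Cd28) to 41.7 (Thy1). At the first coding starts of Cd28 and Ctla4 the ratio was 0.199 and 0.211.

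In the full lists the Cd5 promoter was already open in progenitors and rose with culture on Delta1. Its percentiles were 41.2, 49.3 and 44.3 in LSK, 80.4 and 85.3 in DN1, 83.8 and 80.7 in DN2a, 80.3 and 87.1 in DN2b, and 42.3, 38.2 and 48.9 in IgG. All 6 Delta1 libraries lay above all 6 others, and the Delta1 libraries did not order by stage. The mean was 38.9 points higher with Delta1 (82.9 against 44). With each list cut to its 32952 highest-scoring peaks the difference was 38.3. LSK then had 3.83, 16 and no peak, IgG 34.3, 38.2 and 41.9, and the Delta1 libraries 42.5 to 69.1. An exact two-sided permutation test of the 6 Delta1 libraries against the 6 others, which was run on every DHS with a peak in at least 2 libraries, gave p = 0.00216, the smallest it can give, and an adjusted p of 0.0265 (Benjamini-Hochberg over 114527 DHSs). The DHS lies on the first transcribed bases of Cd5 (chr19:10738897-10739106), and the 150 bases before its RefSeq start (GRCm38.p6, chr19:10738975-10739124, minus strand, 5′ to 3′) are shown because this is the one promoter of the 10 that passed the test. Capitals mark the letters AGGAAG (the ETS core) and CAGGTG (an E-box):
Cd5 promoter: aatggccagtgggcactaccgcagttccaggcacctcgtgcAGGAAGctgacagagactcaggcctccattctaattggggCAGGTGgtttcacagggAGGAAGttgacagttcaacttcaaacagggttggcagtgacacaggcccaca

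Of the other promoters, taken at the start of the gene record, none had a peak in more than 4 libraries. Cd2 had a promoter peak at 56.6 and 64.6 in DN1, 25.5 in DN2a replicate 1 and 39.9 in DN2b replicate 2, and none in the other 8 libraries. Icos was similar, with 41.7 and 42.9 in DN1 and 53.5 in DN2b replicate 2 only. Both genes thus had a peak in both DN1 replicates and not in both replicates of either DN2 group. Thy1 had a promoter peak only in DN2b (57.5 and 69.3), and so did Cd6 (10.8 and 51). The Cd6 pattern holds only close to the start: another DHS, Cd6 -1.55 kb, had a peak in 10 libraries, so that with a window of 2.5 kb in place of 1 kb Cd6 was open in 10. With that window Cd4 was open in 3 libraries. None of these 4 passed the test of Delta1 libraries (adjusted p over the 12732 tested promoters 0.157 for Cd2, 0.297 for Icos and 0.562 for Thy1 and Cd6; exact permutation test), and Cd5 was the only one of the 5 tested members that did, against 13.7% of tested promoters called higher with Delta1 and 0.628% called lower. Cd2, Icos, Thy1 and Cd6 had peaks in Delta1 libraries alone and could be tested only because of them. With so few peaks that pattern fixes their p whatever the scores, so none of the 4 could have passed. Their lack of a call is therefore not a result, and Cd5 was the only member promoter for which the scores mattered. In lists cut to the same 32952 highest-scoring peaks, Cd2 kept a peak only in DN1 replicate 2, Thy1 only in DN2b replicate 1, and Cd6 and Icos in none. Cd5 kept a peak in 11 libraries with that cut and in 6 with the upper 50% of each list.

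**Figure D1:**
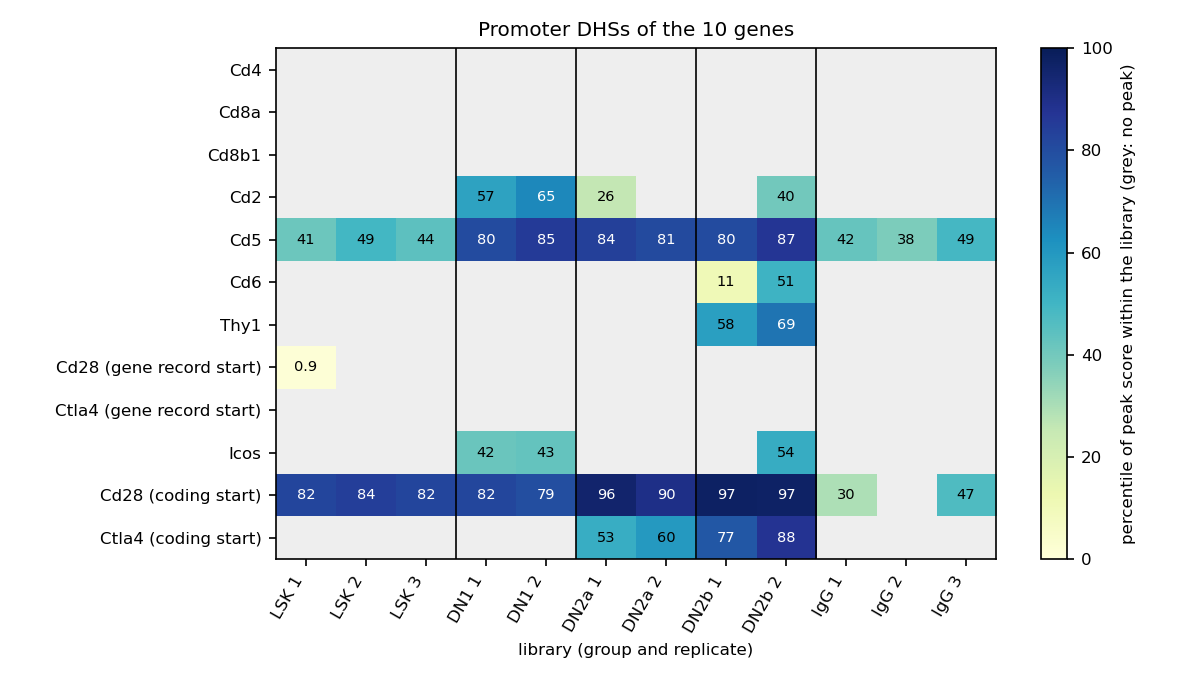
Percentile of the promoter peak's score within each library (columns, by group and replicate) for the 10 genes (rows); grey marks no peak within 1 kb of the start, and Cd28 and Ctla4 are given at both annotated starts. Cd5 is open in all 12 libraries and higher in the 6 Delta1 libraries, and Ctla4 at its coding start is open only in the 4 DN2 libraries.

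The start site used decides what Cd28 and Ctla4 show. In the annotation, the Cd28 gene record begins 29.6 kb and the Ctla4 record 22 kb upstream of the first start of a protein-coding transcript. At the record's start Cd28 had a single peak, at the 0.935th percentile of LSK replicate 1. Its coding start has 2 DHSs. The one on the start (chr1:60746257-60746446) had a peak in 11 libraries, at 82.4, 84 and 82.3 in LSK, 82 and 79.3 in DN1, 95.7 and 90.1 in DN2a, 97.4 and 96.9 in DN2b, and 29.5 and 46.9 in IgG replicates 1 and 3. All 4 DN2 libraries lay above the 8 others, by 34.2 points on average (95 against 60.8, exact permutation p = 0.0404, adjusted p = 0.277). The DN1 replicates (82 and 79.3) lay just below the LSK libraries (82.3 to 84), a gap no larger than the one between the DN1 replicates. The other, Cd28 -0.55 kb (chr1:60745697-60745926), did not have that pattern, with 62, 66.4 and 72.7 in LSK, 75.8 and 78.6 in DN1, 71.6 and 57.9 in DN2a, 73.6 and 68.5 in DN2b and a peak in IgG replicate 3 only (32.2). Its DN2 libraries overlapped the others (difference 19.4, exact permutation p = 0.335), and at equal list lengths the difference was -0.155.

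Ctla4 was the only gene of the 10 with a start open in all DN2 libraries and no other. The DHS at that start (chr1:60908917-60909106) had percentiles of 53.1 and 59.5 in DN2a, 76.8 and 87.8 in DN2b, and no peak in the 8 LSK, DN1 and IgG libraries. The DN2 mean of 69.3 points against 0 is a description: a peak in all DN2 libraries and no other fixes the p of the exact permutation test at the smallest that 4 and 8 libraries can give (0.00202, adjusted p = 0.0528 over all DHSs), so the test adds nothing to the pattern. The 150 bases before the RefSeq start (GRCm38.p6, chr1:60908875-60909024, plus strand) are given with CTTCCT, the reverse complement of AGGAAG, and CAGGTG in capitals:
Ctla4 promoter: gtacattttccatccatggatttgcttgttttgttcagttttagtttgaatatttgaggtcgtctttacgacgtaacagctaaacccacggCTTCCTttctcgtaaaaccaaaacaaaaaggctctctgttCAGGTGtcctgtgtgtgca

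The number of DHSs around the 10 genes was highest in the longest list and lowest in the shortest, but did not follow list length throughout: DN1 replicate 1 (96436 peaks) and DN2a replicate 1 (68478 peaks) had equal counts. LSK libraries had a peak at 49, 60 and 71 of the 199 DHSs (60 ± 11, SD, n = 3), DN1 at 85 and 73 (79 ± 8.49, n = 2), DN2a at 85 and 71 (78 ± 9.90, n = 2), DN2b at 78 and 152 (115 ± 52.3, n = 2) and IgG at 44, 35 and 43 (40.7 ± 4.93, n = 3). DN2b replicate 2, which has the longest list, stood apart: 71 of the 199 DHSs (35.7%, beside 32.7% of all DHSs) had a peak in 1 library, and in 45 of these that library was DN2b replicate 2. With 32952 peaks taken from each list the counts were 36, 43 and 38 in LSK, 40 and 47 in DN1, 48 and 57 in DN2a, 60 and 59 in DN2b, and 42, 35 and 40 in IgG. The 4 DN2 libraries then all lay above the 8 others, while LSK, DN1 and IgG overlapped. DN2b had the highest mean with both list lengths, but in the full lists the size of that mean rested on DN2b replicate 2.

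**Figure D2:**
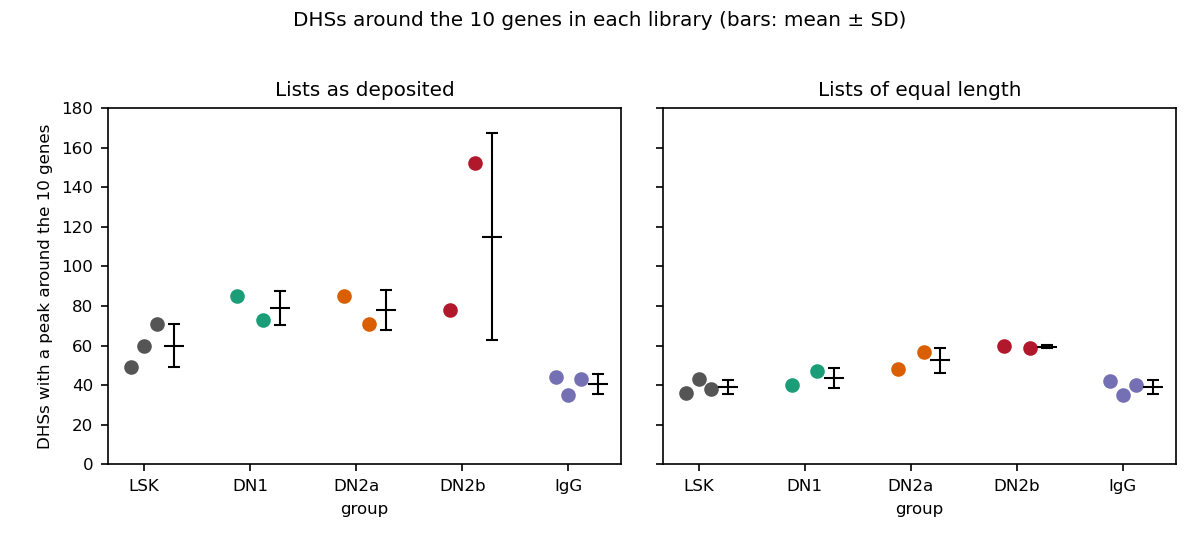
Number of the DHSs around the 10 genes that have a peak in each library (points, y axis) by group (x axis), with the mean and SD of each group beside the points, for the deposited lists and for lists cut to 32952 peaks each. In the deposited lists DN2b replicate 2 lies at 152, and at equal length the 4 DN2 libraries lie between 48 and 60 and the others between 35 and 47.

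In the order of the stages, most DHSs that had a peak in at least 2 replicates of some group had one from the start. The rule asks for 2 of 3 libraries in LSK and IgG but for 2 of 2 in each DN group. It is thus easier to meet in LSK. By that rule 59 of the 199 (29.6%) were present in LSK cells, 17 (8.54%) appeared first in DN1, 15 (7.54%) in DN2a and 14 (7.04%) in DN2b, 8 (4.02%) were present in IgG alone and 86 (43.2%) in no group. Over all 170207 DHSs the shares were 30.9%, 11.6%, 2.91%, 5.13%, 4.71% and 44.8%. The Cd4 locus held 18 of 35 already in LSK and none that appeared first in DN1, whereas the Cd28, Ctla4 and Icos locus held 12 of 69 in LSK, 9 that appeared in DN1 and 7 in DN2a. Thy1 had 5 of 24 that appeared in DN2a.

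Around the 10 genes 17 of 128 tested DHSs (13.3%) were higher in Delta1 libraries at an adjusted p below 0.05, beside 9.24% of all tested DHSs, and 1 (0.781%) was lower, beside 0.522%. These calls depend on the use of ranks: with presence in place of rank the test called 0 DHSs, around the 10 genes and in the genome. For the 3 DHSs present only in Delta1 libraries, described below, presence alone fixes the p with either measure. Their calls were lost only through the adjustment over all DHSs. Without DN1 replicate 1 or any 1 of the 4 DN2 libraries, the 18 calls fell to 9 or 10, and without DN1 replicate 2 to 15. The differences themselves moved less: over these 6 settings Cd28 -43.52 kb kept a difference of 64.1 to 65.7 points and Cd5 +28.90 kb of 53.7 to 54.7, while Cd6 -39.70 kb ranged from 39.4 to 46.8. At equal list lengths 9 of the 18 were called again, and Cd28 +51.68 kb, Ctla4 +2.76 kb, both Icos DHSs, Cd2 +22.11 kb, Cd4 +28.29 kb and -10.33 kb, Thy1 +3.83 kb and Cd6 -39.70 kb were not. Of these 9, 2 could not be tested at equal list lengths, Icos -22.91 kb with a peak in 1 library and Cd2 +22.11 kb with none. The differences of the others changed unequally. Ctla4 +2.76 kb went from 64.8 to 51.1, Cd4 -10.33 kb from 57.3 to 41.2 and Thy1 +3.83 kb from 65.3 to 40.6. Icos +12.51 kb went from 63.5 to 18.8 and Cd6 -39.70 kb from 43.1 to 2.41. Cd6 -12.39 kb was called at equal list lengths alone. The test of 4 DN2 libraries against the 8 others called none of 128, as it called 0.0% of all tested DHSs, because the smallest adjusted p it reached was 0.0528. At an unadjusted p below 0.05 (exact permutation test), 32 of 128 (25%) were higher in DN2, beside 13.6%, and 5 (3.91%) were lower, beside 2.4%. In 18 of 128 (14.1%) all DN2 libraries lay above all others, beside 3.97%, and in 2 (1.56%) below all others, beside 0.678%. Of these 18, 10 lay in the Cd28, Ctla4 and Icos locus, 4 around Thy1, 2 around Cd5 and Cd6, and 1 each around Cd2 and Cd4. Among both the 18 and the 32 are the 8 DHSs with a peak in DN2 alone, described below. Their pattern fixes this order and the p, as it does for 1291 of the 4541 such DHSs in the genome. At equal list lengths the DN2 test called 8 of 85 member DHSs higher (9.41%, beside 5.35% of all) and 2 lower (2.35%, beside 1.33%), each with an adjusted p of 0.0302. The 8 were Cd28 +9.19 kb and +12 kb, Ctla4 -0.01 kb, +1.98 kb and +2.76 kb, Cd4 -12.34 kb, and Thy1 -11.99 kb and +3.83 kb, and 5 of them had a peak at equal length in DN2 alone, which fixes that p.

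Presence patterns gave 8 of 199 DHSs (4.02%, beside 0.758% of all) with a peak in all 4 DN2 libraries and no other: 6 in the Cd28, Ctla4 and Icos locus and 2 around Thy1. In each of the 8, both DN2b replicates lay above both DN2a replicates, beside 61.1% of all DHSs with the pattern. At equal list lengths the pattern was found in 5 (4.46% of the member DHSs of those lists, beside 1.98%), again with DN2b above DN2a in each, beside 47.9%. Only 3 of the 8 were among them (Cd28 +12 kb and Ctla4 -0.01 kb and +1.98 kb), and the other 5 of the 8 kept a peak in 3 DN2 libraries, all but DN2a replicate 1. A peak in all 6 Delta1 libraries and no other was found in 3 (1.51%, beside 1.9%), all in the Cd28, Ctla4 and Icos locus, and none of the 3 kept the pattern at equal list lengths. A peak in all 3 IgG libraries and no other was found in 4 (2.01%, beside 1.89%), and a peak in all 12 libraries in 14 (7.04%, beside 7.68%), of which none lay around Cd28, Ctla4 and Icos, Cd2 or Cd8.

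**Figure D3:**
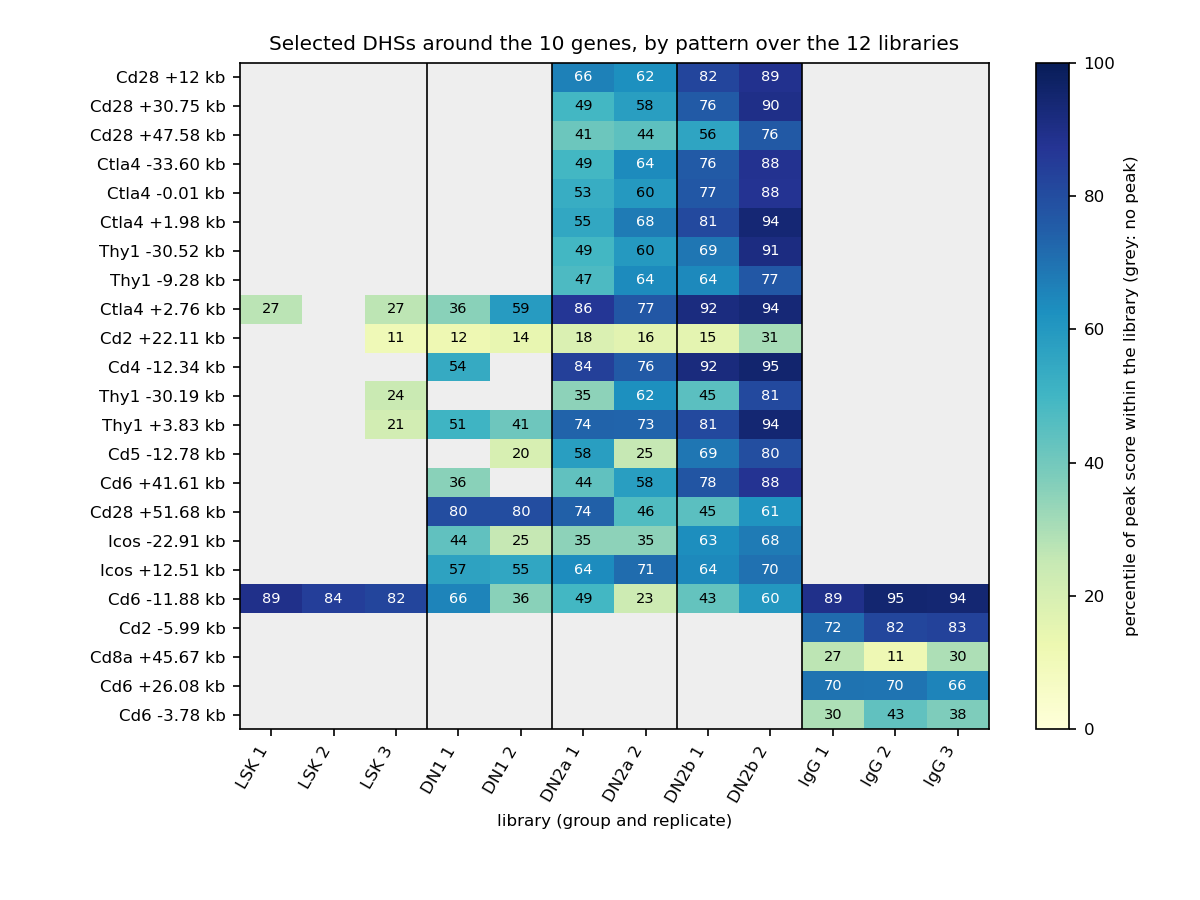
Percentile of the peak's score within each library (columns) for selected DHSs around the 10 genes (rows, named by gene and distance from its start); grey marks no peak. From top to bottom the rows are the 8 DHSs present only in DN2, 7 further DHSs with every DN2 library above all others and the smallest DN2 adjusted p, the 3 present only in Delta1 libraries, the 1 lower with Delta1 and the 4 present only in IgG.

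Within Cd28, 3 intronic DHSs had different patterns over the stages. Cd28 +9.69 kb (chr1:60755957-60756146) was open in LSK at 63.5, 78.5 and 77.1 and in DN1 at 62 and 70.6, and reached 94.5 and 93.1 in DN2a and 95.1 and 97.2 in DN2b, with no peak in IgG. Cd28 +9.19 kb (chr1:60755457-60755646) had a peak in LSK replicate 3 only among progenitors (32.1), then 79.8 and 71.7 in DN1, 91.2 and 75 in DN2a and 88 and 94.6 in DN2b, again with none in IgG. It was 78 points higher in Delta1 libraries (exact permutation p = 0.00216, adjusted p = 0.0265). Cd28 +12 kb (chr1:60758257-60758466) had the latest pattern, with no peak in LSK, DN1 or IgG, 66.1 and 62.5 in DN2a and 82.3 and 88.6 in DN2b. Upstream of the gene, Cd28 -43.52 kb (chr1:60702757-60702926) had 36, 63.6 and 56.4 in LSK, 86.9 to 94.8 in the 6 Delta1 libraries and no peak in IgG (exact permutation test, adjusted p = 0.0265).

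The sequences of the stage-dependent intronic DHSs are printed for the plus strand of GRCm38/mm10, each the 150 bases of the highest-ranked peak. Capitals mark short letter runs that were searched on both strands. TGTGGT stands for the core read by RUNX factors and AGGAAG for that of ETS factors. GATA factors were represented by AGATAA, and TCF factors were represented by CTTTGA. The E-box of basic helix-loop-helix factors was searched as CAGCTG and, as a second form, as CAGGTG. The core of RBPJ, the DNA-binding partner of Notch, was searched as TGGGAA. They lie at chr1:60755497-60755646 for Cd28 +9.19 kb, chr1:60758297-60758446 for Cd28 +12 kb, chr1:60910937-60911086 for Ctla4 +1.98 kb, chr1:60911717-60911866 for Ctla4 +2.76 kb and chr1:60990337-60990486 for Icos +12.51 kb. Where RUNX and E-box letters overlap in Cd28 +9.19 kb, they share 1 run of capitals:
Cd28 +9.19 kb: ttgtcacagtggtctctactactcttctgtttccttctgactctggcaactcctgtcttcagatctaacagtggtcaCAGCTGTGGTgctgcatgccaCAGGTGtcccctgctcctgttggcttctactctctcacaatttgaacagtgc
Cd28 +12 kb: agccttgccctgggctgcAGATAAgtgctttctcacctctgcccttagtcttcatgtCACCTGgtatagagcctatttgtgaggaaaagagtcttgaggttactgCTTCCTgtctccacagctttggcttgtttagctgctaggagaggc
Ctla4 +1.98 kb: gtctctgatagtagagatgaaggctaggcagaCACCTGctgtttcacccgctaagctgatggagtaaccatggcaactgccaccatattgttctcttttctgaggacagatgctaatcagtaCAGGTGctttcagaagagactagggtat
Ctla4 +2.76 kb: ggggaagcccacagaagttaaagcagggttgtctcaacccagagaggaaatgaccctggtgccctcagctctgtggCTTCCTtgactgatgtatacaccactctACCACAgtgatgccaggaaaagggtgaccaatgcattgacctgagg
Icos +12.51 kb: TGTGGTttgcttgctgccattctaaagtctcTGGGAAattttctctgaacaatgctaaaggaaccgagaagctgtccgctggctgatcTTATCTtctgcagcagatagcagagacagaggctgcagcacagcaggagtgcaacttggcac

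Inside Ctla4, the DHS 1.98 kb below the coding start (chr1:60910917-60911086) matched the promoter DHS in its pattern, with 54.9 and 67.7 in DN2a, 81 and 94 in DN2b and no peak elsewhere. Its neighbour Ctla4 +2.76 kb (chr1:60911677-60911886) was seen earlier: 27.3 and 26.9 in LSK replicates 1 and 3, 35.7 and 58.6 in DN1, 86.5 and 76.8 in DN2a, 91.5 and 93.7 in DN2b, and no peak in LSK replicate 2 or IgG. That DHS was 64.8 points higher in Delta1 libraries (adjusted p = 0.0265) and 68.6 points higher in DN2 than in the others (adjusted p = 0.0528; exact permutation tests). Ctla4 +7.37 kb (chr1:60916297-60916486), below the gene, was open in LSK at 68.9, 81.4 and 74.6 and in the Delta1 libraries at 80.3 to 92.7, with 12.2, none and 58.2 in IgG (exact permutation test, adjusted p = 0.0444). Ctla4 -33.60 kb, in the stretch between Cd28 and Ctla4, was present in DN2 only (49.3, 63.9, 76 and 88.2), as were Cd28 +30.75 kb (49.3, 57.9, 76 and 89.6) and Cd28 +47.58 kb (41.4, 44.5, 55.9 and 76.2), which lie in the non-coding genes Gm11579 and 2310016D23Rik. As at the Ctla4 start, the pattern of the 6 DN2-only DHSs of this locus fixes their p, and no test bears on it.

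Icos, the third receptor gene of the locus, had DHSs that were present in DN1 as well as in DN2. The intronic Icos +12.51 kb (chr1:60990337-60990526) had no peak in LSK or IgG and stood at 56.6 and 55.2 in DN1, 63.6 and 71.1 in DN2a, and 64.4 and 70 in DN2b. Icos -22.91 kb was present in the same 6 libraries (43.6, 25, 34.9, 35.1, 63.1 and 67.7 in the order DN1, DN2a, DN2b), and so was Cd28 +51.68 kb (79.8, 80, 74.5, 46.5, 44.9 and 61.3), where both DN1 libraries lay above all DN2 libraries. The 3 are among the Delta1 calls, but a peak in the 6 Delta1 libraries alone fixes the p of that test, which adds nothing to the pattern. At equal list lengths Icos +12.51 kb and Cd28 +51.68 kb had a peak in 4 libraries each and Icos -22.91 kb in 1. At the start of Icos and at +12.51 kb both replicates first had a peak in DN1, and at the coding start of Ctla4 and at +1.98 kb in DN2a. This order was not kept at equal list lengths, where the Icos start had no peak and Icos +12.51 kb had one in DN1 replicate 2 (5.56) and then in both DN2a replicates. The difference between the genes was not tested.

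**Figure D4:**
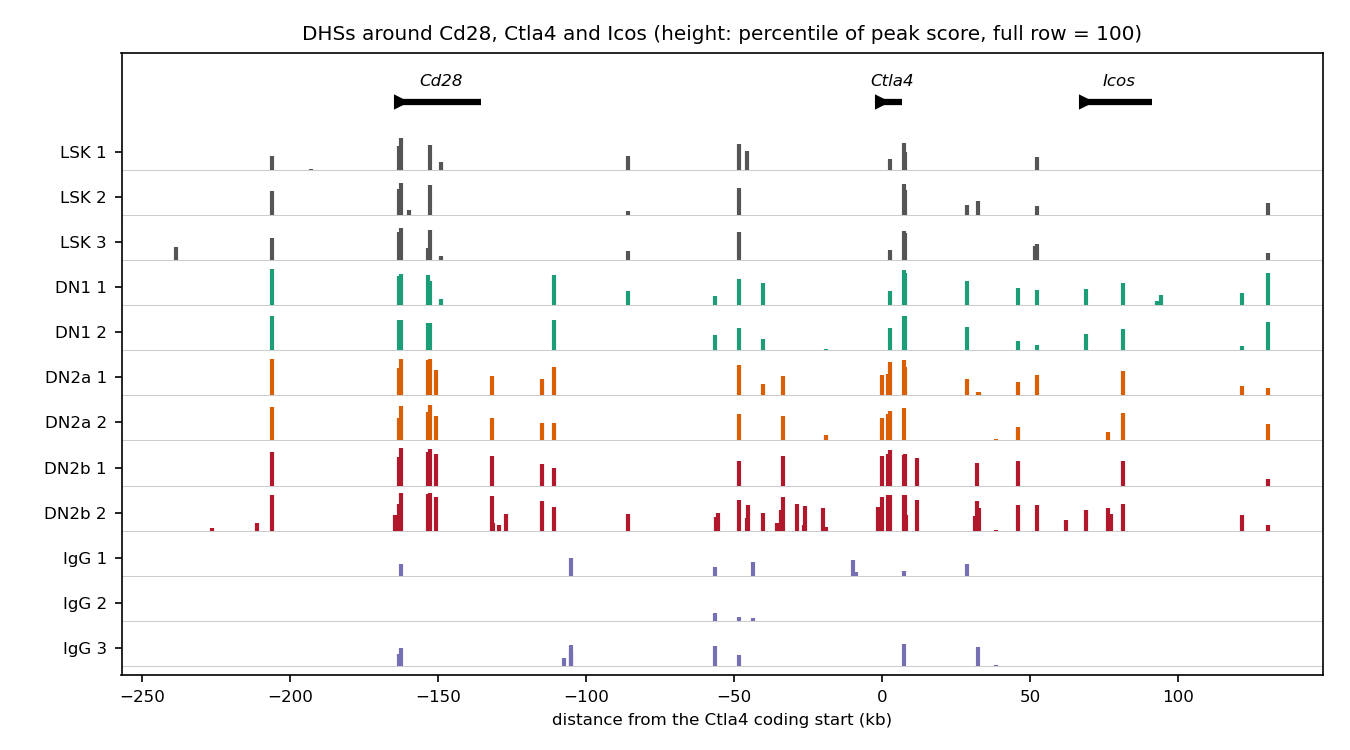
Peaks around Cd28, Ctla4 and Icos in each library (rows), with distance from the Ctla4 coding start in kb on the x axis; bar height is the percentile of the peak's score within the library, full row height being 100, and black bars are the genes from their coding start. The DHS on the Cd28 coding start has a peak in all LSK libraries and the DHS at the Ctla4 coding start only in DN2, and neither has a peak in IgG replicate 2.

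Around Thy1, DHSs were first called at successive stages from LSK to DN2b. The intronic Thy1 +3.83 kb (chr9:44047077-44047346) had 21.3 in LSK replicate 3, 50.6 and 40.7 in DN1, 73.6 and 73.1 in DN2a, 81 and 94.3 in DN2b and no peak in the other 5 libraries. The Delta1 libraries were 65.3 points higher (adjusted p = 0.0265), and all DN2 libraries lay above the others by 66.4 points on average (adjusted p = 0.0528; exact permutation tests). Thy1 -11.99 kb (chr9:44031297-44031486) followed the same course, with 37.2 and 10.9 in LSK replicates 2 and 3, 72.5 and 56.9 in DN1, 84.5 and 72.1 in DN2a, 88.9 and 91.7 in DN2b and none in IgG (exact permutation test, adjusted p of Delta1 = 0.0265). Thy1 -9.28 kb (chr9:44034017-44034186) was present only in DN2 (47.4, 63.9, 64.4 and 76.8), as was Thy1 -30.52 kb (49.3, 59.5, 68.9 and 91.4). Thy1 -21.09 kb and the promoter itself had a peak only in DN2b (75.2 and 87.8 for the former). Going by a peak in every replicate of a group, the intronic and the -11.99 kb DHSs were first seen in DN1, the -9.28 and -30.52 kb DHSs in DN2a and the promoter in DN2b. By the earlier rule of at least 2 replicates the -11.99 kb DHS was already present in LSK. At equal list lengths the order was kept only in part: the -11.99 kb DHS was still seen in both DN1 replicates, but the intronic DHS first in DN2a, the -9.28 and -30.52 kb DHSs in DN2a replicate 2 and both DN2b replicates, and the promoter in DN2b replicate 1 alone. All of the upstream DHSs named lie in the non-coding gene Gm39323.

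Around Cd4 the gene itself was nearly free of peaks, and the DHSs that differed most near it lay upstream. Within the gene body, Cd4 +2.10 kb in an intron had 25.5 in DN2a replicate 1 and 59 and 57 in DN2b, and 2 further intronic DHSs were seen in DN2b replicate 2 alone. Cd4 -12.34 kb (chr6:124900477-124900646) had 53.7 in DN1 replicate 1, 83.8 and 75.9 in DN2a and 91.9 and 95.2 in DN2b, and no peak in LSK, IgG or DN1 replicate 2. Its DN2 difference of 80 points was the largest of the 128 tested DHSs, with an adjusted p of 0.0528. Cd4 -10.33 kb (chr6:124898457-124898646) was present before, with 66.4 and 56.4 in LSK replicates 2 and 3, 83.1 and 80 in DN1, 71.6 and 61 in DN2a and 82.3 and 88.6 in DN2b, and none in IgG (Delta1 difference 57.3, exact permutation test, adjusted p = 0.0444). The other Cd4 DHSs higher with Delta1 lie within neighbours: Cd4 +59.83 kb in an intron of Usp5 and Cd4 +28.29 kb in an exon of Gpr162 (exact permutation test, adjusted p = 0.0265 for each). The window is rich in other genes, and 6 of its DHSs were open in all 12 libraries, 5 of them at the promoters of Cdca3, Usp5 and Mlf2.

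A DHS of Cd4 and one of Thy1 that were highest in DN2b share a stretch of sequence. The upstream pair of Cd4 (chr6:124900477-124900626 and chr6:124898477-124898626) and the intronic and one upstream DHS of Thy1 (chr9:44047137-44047286 and chr9:44034037-44034186) are printed for the plus strand, with capitals as above:
Cd4 -12.34 kb: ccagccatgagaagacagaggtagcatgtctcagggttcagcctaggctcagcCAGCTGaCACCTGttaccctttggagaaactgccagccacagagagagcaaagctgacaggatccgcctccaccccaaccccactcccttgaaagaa
Cd4 -10.33 kb: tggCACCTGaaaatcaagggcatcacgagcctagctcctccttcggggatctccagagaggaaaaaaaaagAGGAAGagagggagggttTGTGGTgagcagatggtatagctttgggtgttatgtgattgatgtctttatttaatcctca
Thy1 +3.83 kb: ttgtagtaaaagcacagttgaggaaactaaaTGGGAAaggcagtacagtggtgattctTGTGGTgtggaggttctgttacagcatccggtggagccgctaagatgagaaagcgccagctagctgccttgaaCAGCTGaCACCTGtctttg
Thy1 -9.28 kb: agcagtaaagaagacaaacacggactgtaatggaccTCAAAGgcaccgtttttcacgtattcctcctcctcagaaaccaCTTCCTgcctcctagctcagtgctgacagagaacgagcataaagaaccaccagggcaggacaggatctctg

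In Cd4 -12.34 kb and Thy1 +3.83 kb the E-boxes CAGCTG and CAGGTG (read as CACCTG) stand side by side with 1 base between them, as the run CAGCTGACACCTG. This run, chosen after the sequences had been seen, occurs on either strand in 9 of the 170207 peak windows (0.00529%), and those 2 are the only ones around the 10 genes. A match of letters describes the sequence and does not show a bound factor.

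**Figure D5:**
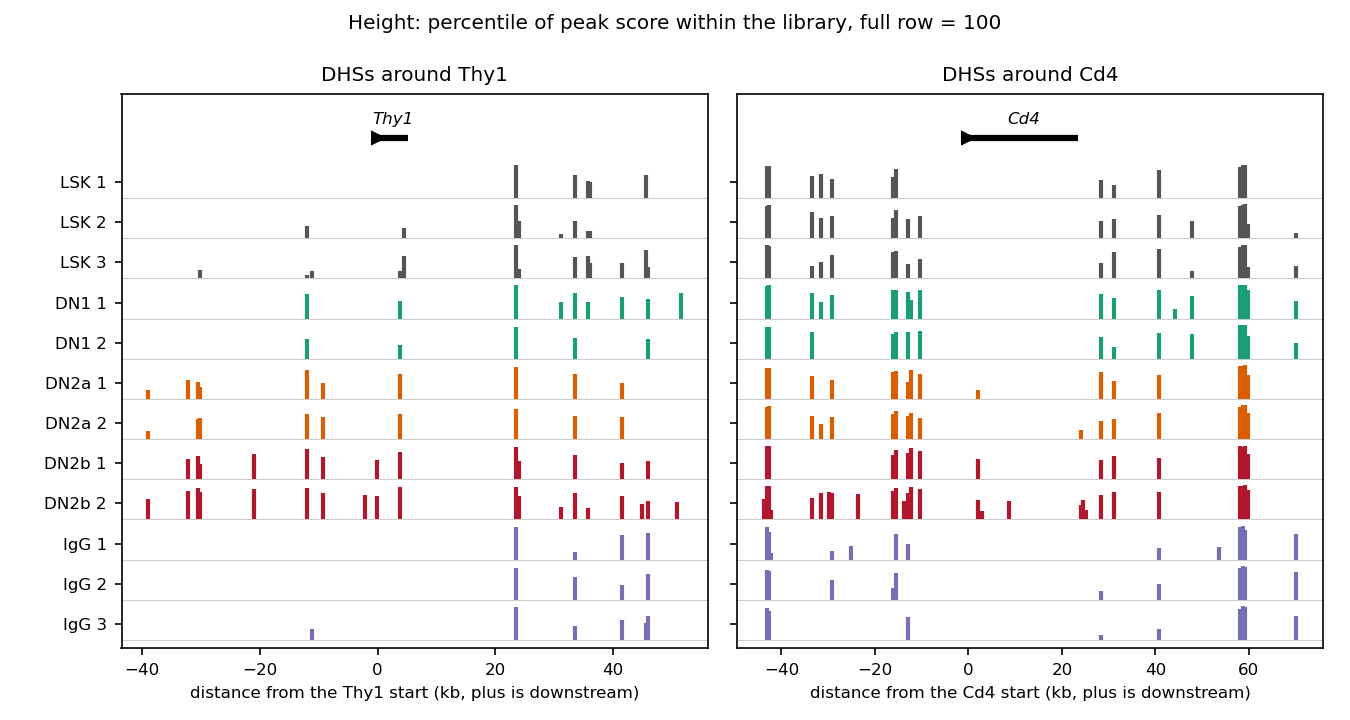
Peaks around Thy1 (left) and Cd4 (right) in each library (rows), with distance from the gene's start in kb on the x axis (plus is downstream); bar height is the percentile of the peak's score within the library, full row height being 100. Upstream of Thy1, the DHS at -11.99 kb has a peak in 2 LSK libraries and in all Delta1 libraries and that at -9.28 kb only in DN2, and the body of Cd4 has few peaks in any library.

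The Cd8 locus had the fewest DHSs. None of its 12 DHSs lay within 1 kb of the start of Cd8a or Cd8b1, none of the 7 tested passed the Delta1 test (beside 9.24% of all tested DHSs higher), and 5 of 12 had a peak in 1 library (beside 32.7%). With so few tested DHSs the absence of a call is a description. Cd8b1 -47.77 kb, Cd8b1 -43.17 kb and Cd8a +45.67 kb had peaks only with or only without Delta1, in too few libraries to pass. Inside the genes the only DHS was Cd8a +3.46 kb in a coding exon, at 7.76 in DN2a replicate 1 and 10.5 in DN2b replicate 2. The stronger ones in the full lists, such as Cd8b1 -47.77 kb and Cd8b1 -6.13 kb, lie in introns of the neighbours Smyd1 and Krcc1. Cd8b1 -47.77 kb (chr6:71274937-71275106) had 55.2 and 56.9 in DN1, 27.9 and 44.5 in DN2a, 69.3 in DN2b replicate 2 and none in the other 7 libraries. Its Delta1 difference of 42.3 points is a description, since peaks in Delta1 libraries alone fix the p of the exact permutation test. At equal list lengths that difference was 1.99 points. Cd8b1 -6.13 kb was at 8.11, 44.6 and 34.7 in LSK, 69.7 and 61.8 in DN1, 41.4 and none in DN2a, 10.8 and 39.9 in DN2b and none in IgG. Cd8b1 -43.17 kb went the other way, with 39.6 in LSK replicate 3, 55.6, 23.1 and 58.2 in IgG and no peak in the other 8 libraries (Delta1 difference -29.4). Peaks only in libraries without Delta1 likewise fix its p.

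Around Cd2 1 of 15 tested DHSs passed the Delta1 test, beside 9.24% of all tested DHSs called higher. Cd2 +22.11 kb was higher with Delta1 (exact permutation test, adjusted p = 0.0265) at low percentiles, 11.9 to 30.6 in the Delta1 libraries and 10.9 in LSK replicate 3, and had no peak in any library at equal list lengths. Cd2 -3.44 kb had 39.8 and 58.6 in DN1, 4.71 in DN2a replicate 1 and 36.9 in DN2b replicate 2, the same 4 libraries as the promoter. Peaks in Delta1 libraries alone fix the p of the Delta1 test, so no test bears on this DHS. Downstream of the gene, Cd2 +12.98 kb (chr3:101274857-101275066) was open in all LSK and Delta1 libraries, at 60.4, 78.5 and 59.8 in LSK, 48.9 and 40.7 in DN1, 77.8 and 67.7 in DN2a and 72.8 and 85.9 in DN2b, and in no IgG library. Cd2 -5.99 kb (chr3:101293857-101294006) had 71.6, 81.7 and 83.2 in IgG and no peak in the other 9 libraries, a pattern that also fixes the p of the Delta1 test.

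Around Cd5 and Cd6 both directions were seen. Cd5 +28.90 kb and Cd5 +40.49 kb, in introns of the neighbour Vps37c, were higher with Delta1 (exact permutation test, adjusted p = 0.0265 for each). The former (chr19:10710017-10710186) had 80.3, 86.8 and 81.6 in LSK, 93.1 to 97.7 in the Delta1 libraries and no peak in IgG. The latter (chr19:10698417-10698606) had no peak, 55.4 and 16 in LSK, 92.7 to 96.4 in the Delta1 libraries and 42.3, 50.5 and 71.6 in IgG. Cd6 -39.70 kb, at the promoter of Tmem132a, also passed, at 33.3 to 70 with Delta1, with 33.1, none and 18.6 in LSK and none in IgG. Cd5 -12.78 kb and Cd6 +41.61 kb lay in every DN2 library above all others, at 25.3 to 79.6 and 43.5 to 87.8, with 1 DN1 library each below them (19.6 and 35.7).

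In the full lists the only member DHS called lower with Delta1 was Cd6 -11.88 kb (chr19:10841817-10842066), in an intron of Slc15a3, a peptide and histidine transporter gene. Its percentiles were 89.3, 84 and 82.3 in LSK, 65.5 and 35.7 in DN1, 49.3 and 22.9 in DN2a, 42.7 and 60.2 in DN2b, and 89.4, 94.9 and 94.4 in IgG, so that no Delta1 library reached the others (difference -43, exact permutation test, adjusted p = 0.0265). Cd6 -11.88 kb differed by -83.1 points at equal list lengths and by -69.6 with the upper 50% of each list. Cd6 -12.39 kb beside it lay below all others in every DN2 library, at 49 to 68.5 against 76 to 94.7, and was called lower with Delta1 at equal list lengths (difference -56.3, exact permutation test, adjusted p = 0.0285) but not in the full lists (difference -21.2, adjusted p = 0.0902). Within Cd6, an intronic DHS at +28.77 kb (chr19:10801177-10801406) had 24.2, 42.2 and 29.5 in LSK, 65.5 and 58.6 in DN1, 61.4, 40.9 and 70.5 in IgG and no peak in any DN2 library (difference -49.1, exact permutation p = 0.00202, adjusted p = 0.0528). It is among the DHSs named after their values were seen, with DN2 apart from all others, so this p adds nothing to the pattern. Another intronic DHS, Cd6 +26.08 kb (chr19:10803897-10804066), was present only in IgG at 69.8, 69.5 and 65.5, and so was Cd6 -3.78 kb at 29.5, 43.4 and 37.6. The fourth IgG-only DHS was Cd8a +45.67 kb at 26.6, 11.4 and 29.5. The plus-strand windows of the DHS lower with Delta1 (chr19:10841837-10841986) and of the IgG-only DHS near Cd2 (chr3:101293857-101294006), shown as examples of these directions, hold 1 ETS match and no match. The letters do not divide the named DHSs by direction, since the windows of the DN2-only Ctla4 -33.60 kb and the Delta1-only Icos -22.91 kb also hold no match and that of the IgG-only Cd8a +45.67 kb holds 1 RUNX match:
Cd6 -11.88 kb: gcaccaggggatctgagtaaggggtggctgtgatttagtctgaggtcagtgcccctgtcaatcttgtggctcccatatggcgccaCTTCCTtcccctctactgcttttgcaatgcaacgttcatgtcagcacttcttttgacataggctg
Cd2 -5.99 kb: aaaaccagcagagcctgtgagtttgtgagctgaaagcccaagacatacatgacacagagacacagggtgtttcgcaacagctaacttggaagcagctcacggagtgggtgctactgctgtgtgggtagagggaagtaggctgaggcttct

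Over all windows of 150 bases, the RUNX letters TGTGGT were found on either strand in 61 of 199 member DHSs (30.7%), beside 23.1% of all DHSs. Among the 17 member DHSs higher with Delta1 they were in 11 (64.7%), beside 40.4% of the 10580 such DHSs in the genome. Among the 8 DN2-only DHSs they were in 2 (25%), beside 42.8% of 1291. ETS letters were in 75 of 199 (37.7%, beside 33.6%), in 4 of the 8 (50%, beside 34.9%) and in 7 of the 17 (41.2%, beside 39.4%). The E-box CAGCTG was in 33 of 199 (16.6%, beside 11.5%), but in 1 of the 8 DN2-only DHSs (12.5%, beside 17.4%) and 2 of the 17 higher with Delta1 (11.8%, beside 15.3%). The E-box CAGGTG was in 28 of 199 (14.1%, beside 13%), in 3 of the 8 (37.5%, beside 23.8%) and in 5 of the 17 (29.4%, beside 16.2%). The TCF letters CTTTGA were in 25 of 199 (12.6%, beside 11.2%), in 2 of the 8 (25%, beside 25.1%) and in 2 of the 17 (11.8%, beside 14.4%). The GATA letters AGATAA were in 12 of 199 (6.03%, beside 8.29%), in 2 of the 8 (25%, beside 17.7%) and in 1 of the 17 (5.88%, beside 9.29%). The letters TGGGAA were in 33 of 199 (16.6%, beside 12.8%), in 1 of the 8 (12.5%, beside 13.2%) and in 4 of the 17 (23.5%, beside 13.3%). These shares are descriptions with no test, and overlapping windows of neighbouring genes were counted once.

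Promoters of related receptors and ligands were read in the same way. Of 12 other costimulatory receptors 10 could be tested and 3 were higher with Delta1 (beside 13.7% of all tested promoters), none lower: Cd7 (80.4 and 81.3 in DN1, 75.9 to 90 in DN2, at most 25.6 elsewhere), Ly9, a SLAM family receptor, and Cd69, an early activation marker (adjusted p 0.0255, 0.0255 and 0.0363 over all promoters, exact permutation test). Cd27, a TNF receptor of resting T cells, had 35.7 and 42.9 in DN1 and 55.9 and 76.8 in DN2b with none in the other 8 libraries. Peaks in Delta1 libraries alone fix the p of its test, which adds nothing to the pattern. Tnfrsf4 and Cd40lg had no promoter peak in any library. Of 10 inhibitory receptors 7 could be tested and only Cd96 was higher (exact permutation test, adjusted p = 0.0255), a share close to that 13.7%. Tigit, like Ctla4 at its coding start, had a peak in the 4 DN2 libraries alone (49.3, 27.8, 33.3 and 63.2), and Pdcd1 and Cd160 had none. Of 12 ligands on other cells 9 could be tested and 3 were higher, beside the same 13.7%: Alcam, the ligand of CD6, Cd274 (PD-L1) and Tnfsf4 (exact permutation test, adjusted p = 0.0255 for each). Cd80, one ligand of CD28 and CTLA4, had no promoter peak, and Cd86, the other, was open in 11 libraries with 71.6 and 57.9 in DN2a and none and 7.46 in DN2b. With so few promoters in each list, these counts are descriptions.

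By mean absolute difference in percentile over the 12 libraries, the promoters most like that of Cd5 were Itpa (4.82 points) and Prim1 (5.70), those most like Thy1 were Ltb (0.604) and Stx1a (0.639), and those most like Cd6 were Tmed9 (0.373) and Vat1l (0.574). Cd2 was nearest to Nutm1 (4.39) and Coro1a (4.48), and Icos to Tmem184a (2.24) and Irs3 (3.13). For the genes with a peak in 2 to 4 libraries, the likeness rests mainly on sharing the libraries with no peak.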

How the data were processed

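Mouse DNase-seq was analysed from 12 peak lists, 1 per library. According to the methods and notes of the authors, paired-end reads were aligned to mm10 with BWA 0.7.12 (SAMtools 1.2 is also listed) and hotspot2 called the peaks (false discovery rate 0.05), without pooling of replicates. The deposited lists give for each peak its position (150 bp) and a score, a whole number from 1 to 150 whose meaning is not given in the sources used here. The score was used only as a rank within a library. No read counts or totals are in the lists, so the depth is unknown and no counting interval is given. No 2 lists were identical.

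Peaks on the autosomes and X were merged at 1 bp of overlap with python 3.11.15, numpy 2.4.6 and pandas 2.3.3, and starts were taken from GENCODE M21 (the study used another release). The study's own test works on read profiles, so the difference in mean percentile was tested per DHS with an exact two-sided permutation test over the libraries (4 DN2 against 8, and 6 Delta1 against 6, both sharing libraries), with Benjamini-Hochberg adjustment over all 114527 DHSs with a peak in at least 2 libraries. The test was tried on simulated data first. Its p treats the libraries as independent, although by the study's methods each LSK replicate was a source of DN cells of more than 1 stage. The genes, gene lists and tests were chosen with earlier results of these data known, so no test was made over the members as a group. Named DHSs are, for each gene, the 2 with the largest DN2 difference away from its promoter, those that passed a test or had the DN2-only or Delta1-only pattern, and others added after their values were seen: the IgG-only DHSs, those in which DN2 lay apart from all others, and neighbours within the genes. For each member promoter open in at least 2 libraries, the 2 most similar promoters were named. Of the 10 genes, 3 have an entry in the RefSeq promoter table. Alternatives were equal list lengths, the upper 50% of each list, merging at 50 bp, other windows and starts, presence in place of rank, the DN2 test without IgG and leaving out each library.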

Additional observations from a re-analysis of the deposited data

How the results depend on the processing

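Merging at 50 bp, a flank of 25 kb and the DN2 test without IgG changed no count or call by more than 1.5 times. With every list cut to 32952 peaks, the mean number of open member promoters was 0.25 higher in DN2 than in the other libraries, not 1.12, the difference in DHSs per library was 15.9 in place of 39, the DN2 test called 10 member DHSs in place of 0, the Delta1 test 10 in place of 18, and 5 in place of 8 DHSs were present only in DN2, 3 of them in both sets. With the upper 50% of each list the DN2 test called 9, and 3 DHSs were present only in DN2 and 5 only in the Delta1 libraries. These 2 settings test fewer DHSs. The promoter difference was 1.88 with a window of 2.5 kb and 2.38 with every coding start. A flank of 100 kb gave 5 Delta1-only DHSs. Presence in place of rank left 0 Delta1 calls.

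Leaving out 1 library gave promoter differences of 0.375 (without DN2b replicate 2) to 1.71, differences in DHSs per library of 20.5 (without DN2b replicate 2) to 47.5, 9 to 20 Delta1 calls and 3 to 6 Delta1-only DHSs. The Delta1 calls fell to 9 or 10 without DN1 replicate 1 or without any 1 of the 4 DN2 libraries, and to 15 without DN1 replicate 2, and were 18 to 20 without any 1 LSK or IgG library. The Delta1-only count was 6 without LSK replicate 3 and 5 without DN1 replicate 2. The cause of these changes was not tested. None of the 35 named differences followed through these settings changed sign where it could be computed. At equal list lengths 9 of 85 Delta1 differences and 12 of 85 DN2 differences of all member DHSs did, none of them called with either list length. No paired analysis was possible because the labels give no replicate numbers (those used here only name the libraries) and do not say which libraries of different groups share an isolate. Unknown depth and groups of 2 or 3 libraries limit every value above.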
